A study of Mus musculus with 4 samples.

Results

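The oxidative phosphorylation complexes II to V were followed through their nuclear genes in the hippocampus of mice after exploratory laparotomy. The members were the rows of the gene table whose symbol is Sdha to Sdhd, Cyc1, or begins with Uqcr, Cox and a digit, or Atp5, without the 6 rows marked as pseudogenes by -ps in the symbol. These were 55 of 31060 genes, with 4 genes of complex II, 9 of complex III, 26 of complex IV and 16 of complex V, and the transcript table held 226 of their transcripts. The rule reads the symbols only. The surgery group was wild-type C57BL/6 mice that had a laparotomy under sevoflurane, sampled at day 3 afterwards. The control group was naïve mice of the same background with neither anesthesia nor surgery, given as day 0. All libraries carried the age of 12 months, and each group had 2 of them. Surgery and sevoflurane cannot be told apart in this design, since the control group had neither. The sources do not say that the 2 replicates of a group were separate animals, so each p rests on the spread between these particular libraries, and that spread may be technical only.

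Complexes II, III and IV carry electrons in the inner mitochondrial membrane, from succinate to ubiquinone, on to cytochrome c and finally to oxygen. Complexes III and IV pump protons as they do so, and complex V, the ATP synthase, lets the protons flow back through a rotating ring of c subunits to make ATP. Neurons depend heavily on this ATP for ion pumping and synaptic transmission, and most subunits are nuclear genes whose proteins meet a small set made by the mitochondrial genome.

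The 4 libraries held 18002695 to 19318085 gene counts. The members took 0.632% and 0.615% of them in the surgery group and 0.613% and 0.693% in control. Genes of the mitochondrial genome took 6.32% and 6.61% after surgery, against 5.25% and 4.51% in control. Neuronal markers summed to 5667 and 5478 CPM (counts scaled to the library size with edgeR's trimmed mean of M values) in the surgery libraries and 5959 and 5243 CPM in control. The second surgery library had the lowest sum of 5 oligodendrocyte markers, 3244 CPM, against 4527 to 4650 CPM in control. The first control library stood apart in the 7 choroid plexus markers, with 52.1 CPM in sum, where the other control library had 3525 CPM and the surgery libraries 3635 and 4554 CPM. The second control library had the highest sum of 5 blood markers, 109.8 CPM, against 49.2 to 62.9 CPM in the other libraries. It also had the highest sum of 3 ependyma markers, 32.9 CPM, against 14.3 to 16.9 CPM in the other libraries. None of these markers was at 0 in any library. The libraries also differed in how level went with GC content. Over 10858 genes, the Spearman correlation of a gene's deviation from its mean over the libraries with its GC content was -0.65 and -0.06 in surgery libraries 1 and 2, against 0.26 and 0.59 in control libraries 1 and 2. In bulk RNA, fewer cells of a type and less RNA per cell cannot be told apart.

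Among the 54 members that passed the filter on low counts, the largest difference lay in Atp5k, a small subunit of the ATP synthase, followed by the assembly factor Cox11 and the small subunits Uqcr11, Atp5e and Atp5g3, all with lower levels in the surgery libraries. The alpha and beta subunits of the ATP synthase and Sdha and Sdhb lay within 0.1 of control on the log2 scale. Atp5k, Atp5g3 and Atp5e of the ATP synthase had the smallest p-values, and all 3 were lower. No member passed an adjusted p of 0.05 with edgeR, as none of the 17236 genes tested did (0 called, 0% of all genes). DESeq2 called 2 members, Atp5g3 and Atp5e, against 0.759% of the 8962 genes it adjusted, and limma-voom called 0. At an unadjusted p under 0.05, 11 members were lower, 20.4% of those tested, where 5.63% of all genes were lower. At the same p, 1 member was higher, 1.85%, where 4.33% of all genes were. The groups did not overlap for 15 members that were lower, or 27.8%, against 22.3% of all genes, and for 7 that were higher, or 13.0%, against 20.3% of all genes. The remaining 32 overlapped. The median log2 fold change (surgery over control) of the members was -0.06, and that of all genes 0.00053. The fitted change was under 0.2 in size on the log2 scale for 31 members, and over 1 only for Atp5k. All 11 lower members had their lowest level in the first surgery library, and 10 of them their highest in the second control library. Picking genes as lower favours such an order. Over all tested members the first surgery library was the lowest for 20 and the highest for 20. The second control library was the highest for 26 and the lowest for 7. These libraries lie at the ends of the GC trend, whose part in the order was not tested. With an offset that takes this trend out, 10 members were lower at an unadjusted p under 0.05, or 18.5%, against 3.81% of all genes, and 4 were higher, or 7.41%, against 3.44%. The 10 no longer held Uqcr11, Cox14 and Atp5d and now held Uqcrfs1 and Atp5f1, and Cox4i1, Cox6a1 and Cox8a joined Atp5h among the higher. None passed an adjusted p of 0.05 with the offset either.

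**Figure D1:**
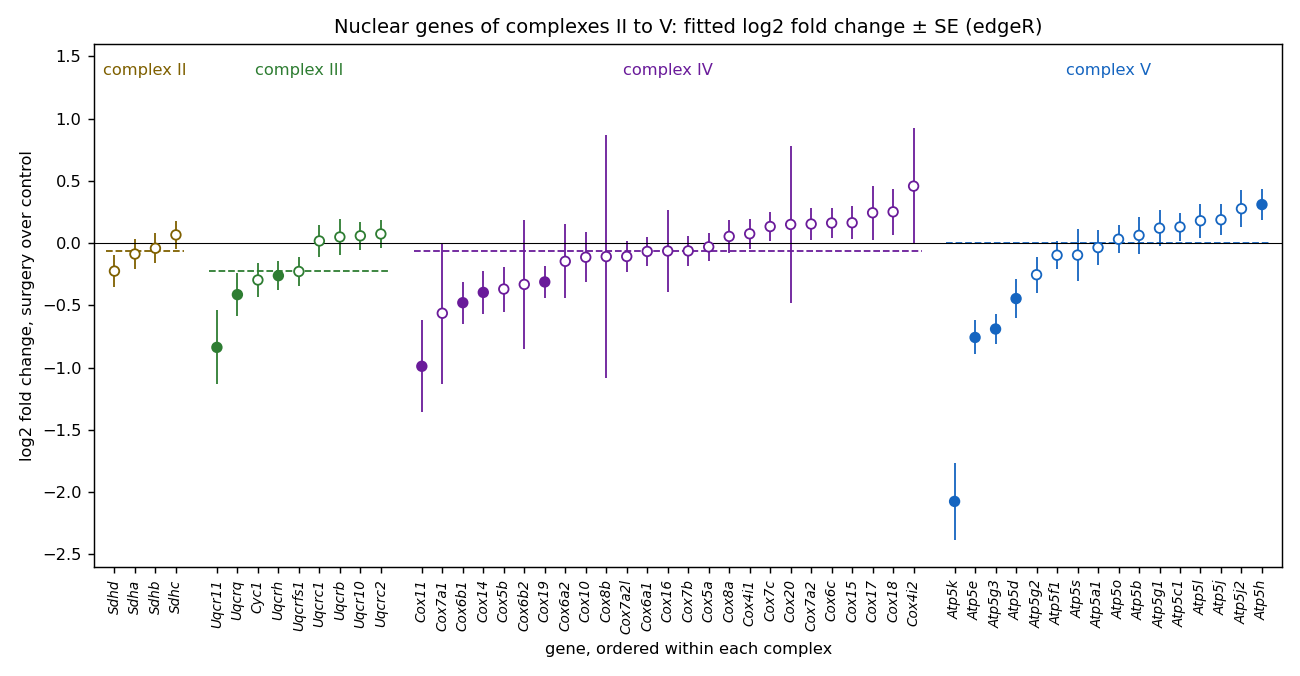
Fitted log2 fold change, surgery over control, of the 54 tested genes by complex. Points are edgeR estimates, bars are 1 standard error, filled points have an unadjusted p under 0.05, and dashed lines are the medians of the complexes; Atp5k at -2.08 lies apart from the rest.

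The start regions printed here belong to the 5 genes with the largest changes among those at an unadjusted p under 0.05, and to Atp5h, the 1 gene that was higher. They are shown so that lower genes and the higher gene can be compared at their promoters. Each runs 5′ to 3′ on the gene's strand, from 250 bases before to 50 bases after the RefSeq start on GRCm38.p6. Capitals mark matches to the letters searched on both strands, so a match may also stand as its reverse complement. The letters were GCGC, any 1 base and then TGCGC for the factor NRF1, with CCGGAAG for the factor GABP, AAGATGG for the factor YY1, GGGCGGG for the factor Sp1, TNAAGGTCA for the receptor ERRalpha and TATAAA for the TATA box. No match overlaps another in these windows. The Atp5k window is chr5:108434350-108434649 (- strand), Atp5g3 chr2:73911277-73911576 (- strand), Atp5e chr2:174464052-174464351 (- strand), Uqcr11 chr10:80406772-80407071 (- strand), Cox11 chr11:90637934-90638233 (+ strand) and Atp5h chr11:115419870-115420169 (- strand).
Atp5k: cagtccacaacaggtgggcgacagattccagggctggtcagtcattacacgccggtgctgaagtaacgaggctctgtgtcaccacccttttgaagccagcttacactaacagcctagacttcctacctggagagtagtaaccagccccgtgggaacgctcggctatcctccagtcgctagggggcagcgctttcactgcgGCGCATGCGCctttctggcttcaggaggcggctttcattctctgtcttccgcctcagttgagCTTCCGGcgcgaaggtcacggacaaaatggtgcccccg
Atp5g3: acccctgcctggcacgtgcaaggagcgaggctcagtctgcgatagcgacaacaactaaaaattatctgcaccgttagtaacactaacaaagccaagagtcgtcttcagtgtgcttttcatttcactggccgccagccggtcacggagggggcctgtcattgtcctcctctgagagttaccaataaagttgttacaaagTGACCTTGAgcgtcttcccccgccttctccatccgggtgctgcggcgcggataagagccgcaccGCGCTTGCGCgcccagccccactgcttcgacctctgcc
Atp5e: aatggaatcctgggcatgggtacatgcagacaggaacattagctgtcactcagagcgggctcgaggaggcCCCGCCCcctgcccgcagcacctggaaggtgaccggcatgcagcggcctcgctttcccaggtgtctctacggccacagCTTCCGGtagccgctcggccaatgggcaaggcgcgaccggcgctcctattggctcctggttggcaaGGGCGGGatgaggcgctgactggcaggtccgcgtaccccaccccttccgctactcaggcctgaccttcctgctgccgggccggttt
Uqcr11: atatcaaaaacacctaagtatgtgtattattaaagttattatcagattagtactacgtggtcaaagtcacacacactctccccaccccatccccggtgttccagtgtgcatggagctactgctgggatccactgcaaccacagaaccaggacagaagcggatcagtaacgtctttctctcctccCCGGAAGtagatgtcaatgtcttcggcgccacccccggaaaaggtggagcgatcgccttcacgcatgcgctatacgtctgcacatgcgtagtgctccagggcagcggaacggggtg
Cox11: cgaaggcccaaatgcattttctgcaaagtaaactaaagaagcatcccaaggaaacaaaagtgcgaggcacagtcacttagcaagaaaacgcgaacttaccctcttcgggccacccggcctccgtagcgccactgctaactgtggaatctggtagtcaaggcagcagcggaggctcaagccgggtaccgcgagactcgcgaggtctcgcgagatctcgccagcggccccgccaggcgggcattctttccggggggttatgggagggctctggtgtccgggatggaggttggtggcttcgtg
Atp5h: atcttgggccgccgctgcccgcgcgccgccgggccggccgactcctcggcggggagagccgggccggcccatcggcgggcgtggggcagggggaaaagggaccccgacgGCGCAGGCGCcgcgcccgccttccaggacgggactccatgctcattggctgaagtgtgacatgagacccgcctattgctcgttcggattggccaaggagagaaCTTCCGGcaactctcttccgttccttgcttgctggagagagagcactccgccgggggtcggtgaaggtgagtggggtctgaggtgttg
Atp5k, with the lowest fold change, and Atp5h each hold 1 NRF1 match and 1 GABP match. Atp5g3 holds an NRF1 match and an ERRalpha match, Atp5e a GABP match and a pair of Sp1 matches, and Uqcr11 a GABP match only. Cox11 holds no match, which says only that these letters are not in this window. RefSeq windows were matched for 43 of the 55 members. A gene can have more than 1 window, and was counted if any of its windows held the letters. GABP letters were counted for 17 of the 43, or 39.5%, against 9.93% of all 27025 genes with a window. NRF1 letters were counted for 10, or 23.3%, against 5.19%. Sp1 letters were counted for 37.2% of matched members and 27.9% of all these genes, and YY1 letters for 14.0% and 7.28%. ERRalpha letters were counted for 4.65% and 1.43%, and TATAAA for 9.30% and 15.7%. Of the 10 matched members that were lower at an unadjusted p under 0.05, 6 held GABP letters and 2 NRF1 letters, against 10 and 7 of the 31 members with a larger p.

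Complex II, succinate dehydrogenase, showed no member at an unadjusted p under 0.05, and its median log2 fold change was -0.06. Sdha, the flavoprotein that oxidises succinate, had 357 and 330.4 CPM in the surgery libraries, against 351 and 379.8 CPM in control. Sdhb, the iron-sulfur subunit, had 95.1 and 81.1 CPM after surgery and 93.5 and 87.9 CPM in control. Both genes overlapped between the groups, with log2 fold changes of -0.09 and -0.04. The membrane anchors differed in direction. Sdhc had 71.3 and 65.8 CPM after surgery and 63.2 and 67.8 CPM in control, a log2 fold change of 0.07. Sdhd had 52.0 and 49.6 CPM in the surgery libraries, against 54.4 and 64.2 CPM in control, with both surgery libraries below both controls, a log2 fold change of -0.22 (SE 0.13, edgeR adjusted p = 0.564). In Sdhd the second control library, at 64.2 CPM, lay well above the other 3 libraries, and without it the log2 fold change was -0.09.

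Complex III, the cytochrome bc1 complex, had the lowest median of the complexes, a log2 fold change of -0.23. At an unadjusted p under 0.05, 3 of 9 genes were lower (33.3%, against 5.63% of all genes) and 0 higher (0%, against 4.33%). The 3 were small supernumerary subunits. Uqcr11, the smallest subunit, had 20.5 and 38.0 CPM in the surgery libraries, against 36.7 and 67.8 CPM in control, a log2 fold change of -0.84 (SE 0.30, edgeR adjusted p = 0.426). Its groups overlapped, since the second surgery library was above the first control library. Without the second control library its log2 fold change was -0.32, and without the second surgery library -1.35, so single libraries decided its size. A processed pseudogene, Gm16418, shares 10.9% of the 50-base stretches of Uqcr11 and had 8 and 26 counts in the surgery libraries, against 13 and 67 in control.

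Uqcrq, a subunit beside cytochrome b, had 47.5 and 70.3 CPM after surgery and 71.9 and 84.9 CPM in control, a log2 fold change of -0.41 (SE 0.17, edgeR adjusted p = 0.473). Its groups were apart, but most of the difference lay in the first surgery library, without which the log2 fold change was -0.15. Uqcrh, the hinge protein that helps cytochrome c1 meet cytochrome c, had 69.4 and 77.6 CPM in the surgery libraries, against 85.4 and 90.7 CPM in control, a log2 fold change of -0.26 (SE 0.11). Its groups did not overlap, by a margin smaller than the spread within the surgery group. The other supernumerary genes lay level. Uqcr10 had 75.2 and 76.6 CPM after surgery and 70.5 and 75.3 CPM in control, and Uqcrb had 38.7 and 40.7 CPM after surgery and 34.2 and 42.5 CPM in control.

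In the core of complex III, 0 of 4 genes were lower or higher at an unadjusted p under 0.05. Its electron carriers lay under both controls in both surgery libraries, and its large structural subunits did not. Cyc1, which encodes cytochrome c1, had 93.1 and 118 CPM in the surgery libraries, against 122 and 137 CPM in control, a log2 fold change of -0.30 (SE 0.14, edgeR adjusted p = 0.505). Its groups did not overlap, but its transcript is GC-rich (61.4%), and with the GC offset its log2 fold change was -0.02. Uqcrfs1, the Rieske iron-sulfur protein, had 94.8 and 83.5 CPM after surgery and 101 and 108 CPM in control, a log2 fold change of -0.23 that was -0.25 with the GC offset. Both surgery libraries were below both controls for this gene, at an edgeR adjusted p = 0.535. The core proteins, which hold the complex together, overlapped between the groups. Uqcrc1 had 243 and 202 CPM in the surgery group against 215 and 224 CPM in the control group, and Uqcrc2 had 152 and 140.4 CPM in the surgery group against 142 and 135 CPM in the control group.

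Complex IV, cytochrome c oxidase, had 4 of 25 tested genes lower at an unadjusted p under 0.05 (16%, against 5.63% of all genes). It had 0 higher (0%, against 4.33%), and its median log2 fold change was -0.06. Of its 11 ubiquitous subunits only Cox6b1 was among the 4, and the other 3 were assembly factors. Cox6b1, which faces the intermembrane space and links the monomers of the dimer, had 57.8 and 87.4 CPM in the surgery libraries, against 97.8 and 104 CPM in control. Its log2 fold change was -0.48 (SE 0.17, edgeR adjusted p = 0.426), and the second surgery library lay nearer to control than to the first. Without the first surgery library the log2 fold change was -0.21. No 50-base stretch of Cox6b1 occurs in another annotated gene, and the GC offset left its log2 fold change at -0.46.

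The 2 subunits of complex IV that carry the pair of names Cox5a and Cox5b were read apart. Cox5b, which binds zinc, had 67.3 and 88.0 CPM after surgery and 81.3 and 119 CPM in control, a log2 fold change of -0.37 (SE 0.18) with overlapping groups. Without the second control library it was -0.06, and without the first -0.62. Its near copy Gm11273 shares 21.8% of its 50-base stretches and had 58 and 95 counts in the surgery libraries, against 101 and 160 in control. Cox5a had 62.7 and 64.6 CPM after surgery and 64.0 and 66.0 CPM in control, the smallest log2 fold change in complex IV in size (-0.03). For Cox4i1, the regulatory subunit 4, the surgery libraries had 354 and 347 CPM, above both controls at 324 and 342 CPM, with a log2 fold change of 0.08 that was 0.27 with the GC offset, at an unadjusted p under 0.05. Cox7c was the other ubiquitous subunit with both surgery libraries above both controls, with 137 and 134 CPM in the surgery group against 116 and 132 CPM in the control group. These were 2 of the 11 ubiquitous subunits (18.2%, near the 20.3% of all genes).

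The remaining ubiquitous subunits overlapped between the groups. Cox6a1 had 264 and 250.4 CPM after surgery and 261 and 277 CPM in control. Cox6c had 176 and 157 CPM after surgery and 139 and 158 CPM in control. Cox8a, by FPKM (counts scaled by transcript length and library total) the most abundant member of all, had 281 and 273 CPM after surgery and 239 and 295 CPM in control. Their log2 fold changes were -0.07, 0.16 and 0.05, each smaller than 1.5 times its standard error. The transcripts of Cox6a1 and Cox8a are GC-rich, and with the GC offset their log2 fold changes were 0.26 and 0.26, each at an unadjusted p under 0.05. Cox7a2 had 78.3 and 63.1 CPM after surgery and 64.7 and 62.5 CPM in control. Cox7a2l, a relative of Cox7a2, had 100.3 and 82.9 CPM after surgery and 97.4 and 100.02 CPM in control. Cox7b, on the X chromosome, had 70.1 and 78.7 CPM after surgery and 72.0 and 83.4 CPM in control. Cox7a2 was high in the first surgery library only, Cox7a2l low in the second only, and in Cox7b the 2 groups interleaved.

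The tissue-specific isoforms of complex IV were low in every library. Cox4i2, best known from lung, had 1.40 and 1.17 CPM after surgery and 1.22 and 0.648 CPM in control, and made up 0.773% and 0.658% of the FPKM of the Cox4 pair after surgery, against 0.735% and 0.372% in control. Cox6a2, the heart and skeletal muscle form, had 3.59 and 3.17 CPM after surgery and 4.51 and 2.97 CPM in control. Cox7a1, also a muscle form, had 0.831 and 0.390 CPM after surgery and 0.690 and 1.13 CPM in control. The striated muscle markers summed to 6.23 and 6.07 CPM in the surgery libraries and 8.01 and 7.19 CPM in control. These isoforms, with 7 to 85 counts in a library, had standard errors of 0.30 to 0.57 on the log2 scale, and none separated the groups. Cox4i2 had the highest log2 fold change of the members tested, 0.46, which was 0.08 without the second control library.

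A pair of isoforms chosen after their values were seen differed within control rather than between groups. Cox8b, another muscle form, had 13 and 23 counts in the surgery libraries, against 0 and 39 counts in control. Cox6b2, known from testis, had 35 and 48 counts in the surgery libraries, against 22 and 83 counts in control. Both were lowest in the first control library, the one with the low choroid plexus markers, and highest in the second, and the part of choroid plexus RNA in this was not tested. Cox7b2, a testis form, had 8 and 7 counts in the surgery libraries, against 7 and 1 counts in control, and was the 1 member that did not pass the filter.

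Of the 9 assembly factors of complex IV among the members, 3 were lower at an unadjusted p under 0.05 (33.3%, against 5.63% of all genes). None of the 9 was higher (0%, against 4.33%). Cox11, which helps to deliver copper to the catalytic subunit, had 2.75 and 2.84 CPM in the surgery libraries, against 3.34 and 7.78 CPM in control, a log2 fold change of -0.99 (SE 0.37, edgeR adjusted p = 0.453). The first control library lay close to the surgery libraries, and without the second control library the log2 fold change was -0.25. Cox11 also overlaps Tom1l1 on the other strand and shares 43.1% of its 50-base stretches with that gene's transcripts. The strand setting of the counting is not given in the sources used here, so reads of the 2 genes may not be told apart. Cox19, another copper factor, had 30.3 and 31.6 CPM in the surgery group against 40.8 and 36.1 CPM in the control group, a log2 fold change of -0.31 (SE 0.13). Cox14, which acts early in assembly on the mitochondrially encoded Cox1 protein, had 29.7 and 32.1 CPM in the surgery group against 33.3 and 48.0 CPM in the control group, a log2 fold change of -0.40 (SE 0.17). Both surgery libraries of Cox14 were under both controls, but the size of the change came from the second control library, without which the log2 fold change was -0.10.

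The other assembly factors had unadjusted p-values of 0.198 or more. Cox15 and Cox10, which make heme A, had log2 fold changes of 0.16 and -0.11. Cox17, a copper chaperone, was 0.24, and Cox18, which inserts a part of the Cox2 protein into the membrane, 0.25. Cox15 and Cox17 lay above control in both surgery libraries, 2 of the 9 assembly factors (22.2%, near the 20.3% of all genes). Cox16 had 40 to 56 counts and Cox20 6 to 13 counts in a library, with log2 fold changes of -0.06 and 0.15. Both of these share most of their sequence with an overlapping or neighbouring gene, 74.5% with Gm20498 for Cox16 and 59.7% with Hnrnpu for Cox20.

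In complex V 4 of 16 genes were lower at an unadjusted p under 0.05 (25%, against 5.63% of all genes). At the same p 1 was higher (6.25%, against 4.33%), and the median log2 fold change of complex V was -0.0019. Atp5k encodes subunit e, a small membrane protein at the interface of ATP synthase dimers. It lies on chromosome 5, from 108433244 to 108434448 on the minus strand (GRCm38, GENCODE vM21). Atp5k had 95 and 215 counts in the surgery libraries, against 592 and 733 counts in control. In CPM these were 4.94 and 12.0 after surgery and 31.4 and 39.6 in control. Even the higher surgery library was under the lower control library by more than 2-fold, and the log2 fold change was -2.08 (SE 0.31, edgeR adjusted p = 0.123). Leaving out single libraries moved the log2 fold change between -2.85 and -1.56, the ends being the fits without surgery libraries 2 and 1, and the GC offset left it at -1.96. Its copy Atp5k-ps2, which is outside the members, had 2 and 5 counts in the surgery libraries, against 11 and 10 in control. Other genes share 1.08% of the 50-base stretches of Atp5k.

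Subunits f and g, also in the membrane, overlapped between the groups. Atp5j2, subunit f, had 106 and 79.6 CPM after surgery and 69.6 and 83.5 CPM in control, a log2 fold change of 0.28 (SE 0.15, edgeR adjusted p = 0.553), and only the first surgery library was above control. Without that library the log2 fold change was 0.06. Atp5l, subunit g and a partner of subunit e in the dimer interface, had 74.6 and 58.1 CPM after surgery and 57.2 and 60.0 CPM in control, a log2 fold change of 0.18 (SE 0.14) that became -0.0043 with the GC offset and -0.0072 without the first surgery library. Its value is uncertain, since 84.8% of its 50-base stretches occur in other genes, among them the processed pseudogene Gm10221 with 545 and 467 counts after surgery and 348 and 431 in control.

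**Figure D2:**
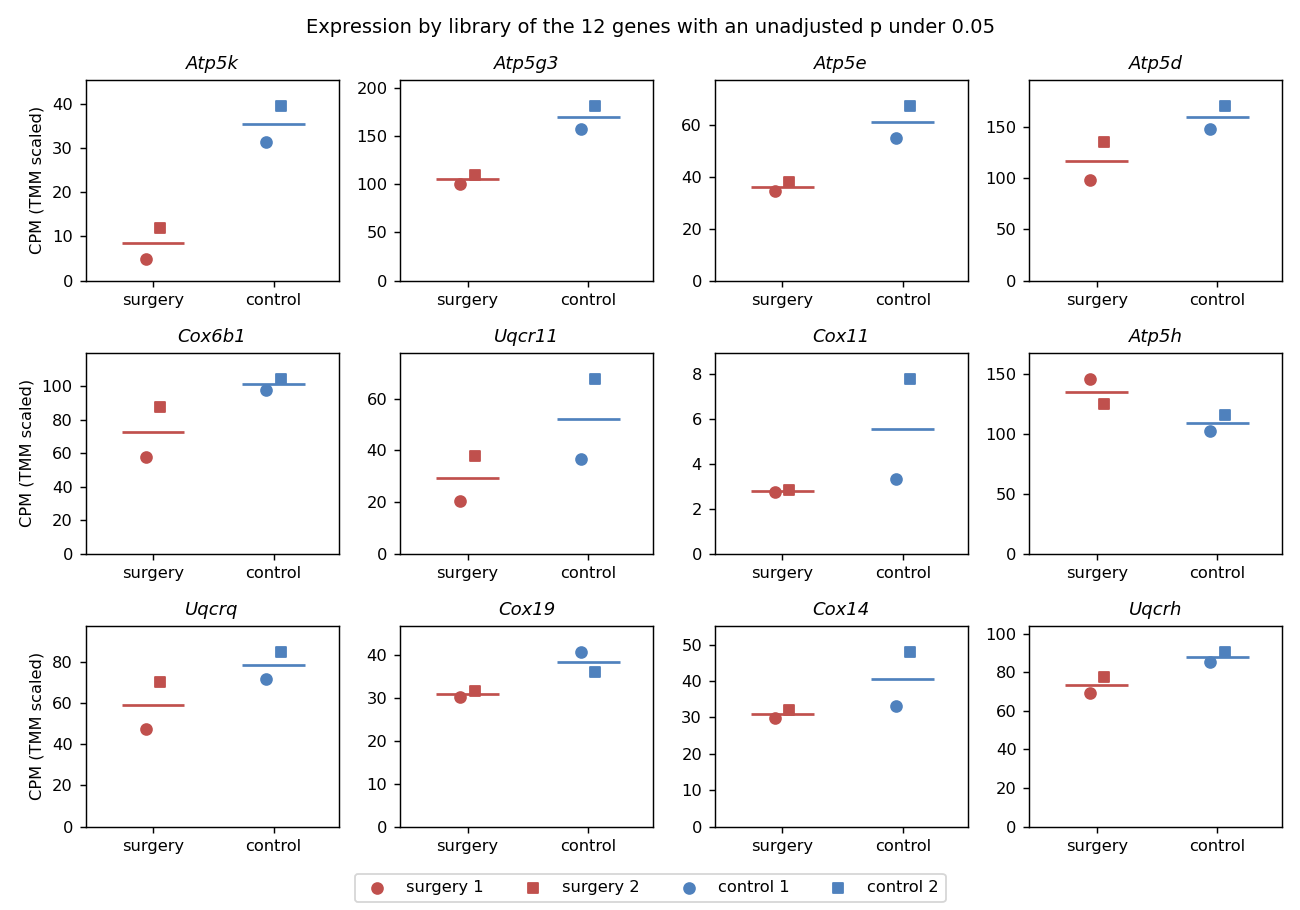
CPM by library of the 12 genes with an unadjusted p under 0.05, in order of p, with surgery and control libraries as points (circle, replicate 1; square, replicate 2) and group means as lines. Each axis starts at 0; Atp5k, Atp5g3 and Atp5e have the widest gaps between the groups, and Uqcr11 overlaps.

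In the c-ring, 3 genes encode 1 identical mature subunit with different import sequences, and only 1 of them was lower at an unadjusted p under 0.05. Atp5g3, on chromosome 2, from 73908447 to 73911326 on the minus strand, had 101 and 109 CPM in the surgery libraries, against 157 and 181 CPM in control. The replicates of each group lay close together, the log2 fold change was -0.69 (SE 0.12, edgeR adjusted p = 0.211), and DESeq2 gave an adjusted p = 0.000419. No 50-base stretch of Atp5g3 occurs in another gene, its GC content of 49.3% is close to the median of all genes (49.4%), and the GC offset gave -0.70. Atp5g1 had 107 and 85.9 CPM after surgery and 79.6 and 98.3 CPM in control, with overlapping groups and a log2 fold change of 0.12 (SE 0.14). Atp5g2 had 41.7 and 54.9 CPM after surgery and 58.4 and 56.7 CPM in control, a log2 fold change of -0.25 (SE 0.14) that became 0.07 with the GC offset. Atp5g2 is GC-rich and shares 38.3% of its 50-base stretches with other genes, the pseudogenes Gm10175 and Gm10231 foremost.

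On the FPKM scale, which sets genes against each other per length, Atp5g3 was the main c-ring gene in every library. It made up 49.7% and 49.9% of the sum of the 3 genes in the surgery libraries, against 58.6% and 60.7% in control. Atp5g1 made up 23.5% and 17.4% after surgery, against 13.1% and 14.6% in control. Atp5g2 made up 26.8% and 32.7% after surgery, against 28.3% and 24.7% in control, without separating the groups. The sum itself was 92.6 and 99.2 FPKM after surgery, against 121 and 141 FPKM in control. The groups did not overlap in the sum, nor in the shares of Atp5g3 and Atp5g1. The ranking and the shares rest on the feature lengths behind the deposited FPKM, and other lengths were not tried. By CPM, which leaves length out, Atp5g1 (107 CPM) lay above Atp5g3 (101 CPM) in the first surgery library, and under it in the other libraries.

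**Figure D3:**
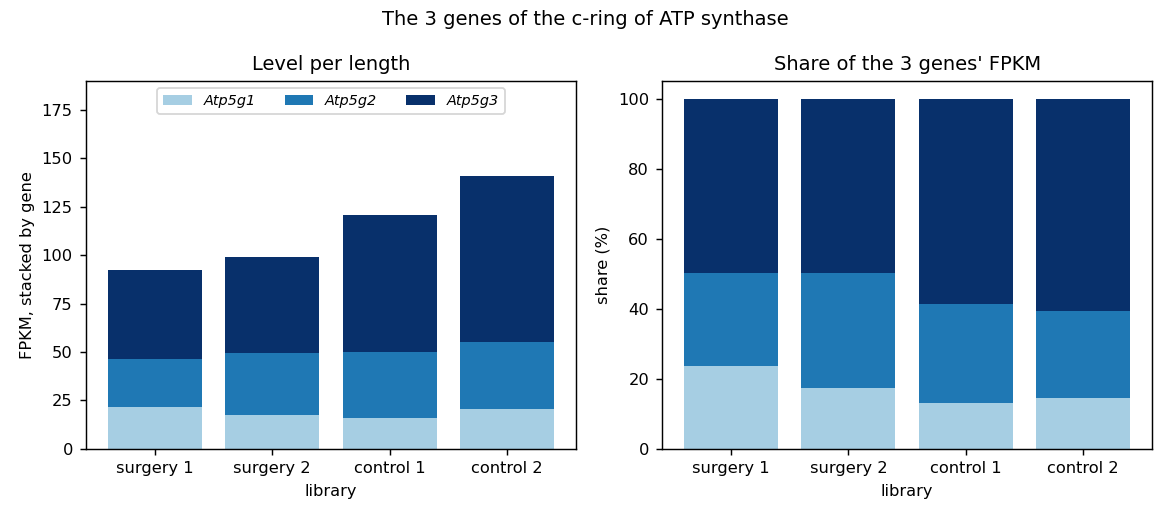
FPKM of Atp5g1, Atp5g2 and Atp5g3 stacked in each library (left), and their shares of the sum in percent (right). The sum is 92.6 and 99.2 FPKM in the surgery libraries and 121 and 141 FPKM in control, and the share of Atp5g3 lies near 50% in the surgery libraries, below both controls.

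The F1 head, where ATP is made, divided between its large and its small subunits. The catalytic hexamer is built from the alpha and beta subunits. Atp5a1, for alpha, had 793 and 763 CPM after surgery and 791 and 803 CPM in control. Atp5b, for beta, had 1040.2 and 1025 CPM after surgery and 963 and 1014 CPM in control. Atp5c1, for the rotating gamma shaft, had 179.6 and 170.4 CPM after surgery and 167 and 152 CPM in control. These 3 had log2 fold changes of -0.04, 0.06 and 0.13, all with an unadjusted p of 0.2795 or more, although Atp5b and Atp5c1 lay above control in both surgery libraries.

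The small subunits at the foot of the shaft were lower. Atp5e, for epsilon, on chromosome 2, from 174461072 to 174464105 on the minus strand, had 34.5 and 37.9 CPM in the surgery libraries, against 55.0 and 67.3 CPM in control. The surgery libraries were alike and under both controls, with a log2 fold change of -0.76 (SE 0.14, edgeR adjusted p = 0.231, and 0.00347 from DESeq2). Atp5e shares no 50-base stretch with another gene, and the GC offset gave -0.76. Atp5d, for delta, had 98.6 and 136 CPM in the surgery libraries, against 148 and 171 CPM in control, a log2 fold change of -0.45 (SE 0.15, edgeR adjusted p = 0.421). Its transcript has a GC content of 59.3%, and with the GC offset the log2 fold change was -0.23. Atp5d also overlaps Cbarp on the other strand. Without the first surgery library its log2 fold change was -0.23.

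The peripheral stalk, which holds the head still while the ring turns, held the 1 member that was higher at an unadjusted p under 0.05. Atp5h, subunit d, had 146 and 125 CPM in the surgery libraries, against 102 and 116 CPM in control, a log2 fold change of 0.31 (SE 0.12, edgeR adjusted p = 0.466). Its processed pseudogene Gm10250 shares 35.4% of its 50-base stretches and was also higher, with 631 and 545 counts in the surgery libraries, against 413 and 336 in control, so the reads of the pair are uncertain. Atp5j, coupling factor 6, had 107 and 90.3 CPM after surgery and 82.0 and 90.9 CPM in control, a log2 fold change of 0.19. Atp5o, the oligomycin sensitivity protein, had 114 and 124 CPM after surgery and 118 and 115 CPM in control, and Atp5f1, subunit b, had 176 and 187 CPM after surgery and 193 and 195 CPM in control. Atp5f1 lay under control in both surgery libraries by a log2 fold change of -0.10, less than its standard error of 0.11. Its transcript is poor in GC, and with the GC offset the log2 fold change was -0.31, at an unadjusted p under 0.05. Other genes share 37.6% of the 50-base stretches of Atp5f1 and 47.6% of those of Atp5o. For Atp5f1 the largest part, 22.5%, lies in the processed pseudogene Gm12231, with 16 and 12 counts after surgery and 37 and 36 in control. Atp5s, a factor associated with the complex, had a log2 fold change of -0.10 with overlapping groups.

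Subunits that stand in fixed numbers in the assembled complex V thus ranged from -2.08 to 0.31 in log2 fold change. The summed CPM of the 16 genes of complex V was 3144 and 3069 in the surgery libraries, against 3091 and 3262 in control. The sums of complex III were 834 and 847 CPM after surgery, against 879 and 966 CPM in control, and were the only ones of the 4 complexes in which the groups did not overlap. Complex IV summed to 1795 and 1781 CPM after surgery, against 1715 and 1912 CPM in control. Complex II summed to 575 and 527 CPM after surgery, against 562 and 600 CPM in control. The sums are carried by the abundant genes, since the 8 members with a mean of at least 100 FPKM made up 53.8% of the FPKM of all 55.

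The medians of complexes II, IV and V changed sign in at least 1 fit that left out a library, and that of complex III did not. Without surgery libraries 1 and 2 in turn, the median log2 fold change of complex III was -0.13 and -0.14. Without control libraries 1 and 2 in turn it was -0.28 and -0.17, and with the GC offset it was -0.12. The median of complex IV was 0.02 without surgery library 1 and 0.06 without control library 2. The median of complex V was 0.03 without surgery library 2 and 0.0012 without control library 2, and that of complex II was 0.02 without surgery library 2. In these fits the group with 1 library was assumed to vary like the other. The number of members lower at an unadjusted p under 0.05 was 6 without surgery library 1 (11.1%, against 3.30% of all genes) and 5 without control library 2 (9.26%, against 3.04%). It was 14 without surgery library 2 (25.9%, against 8.56%) and 13 without control library 1 (24.1%, against 6.46%), the library with low choroid plexus markers.

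**Figure D4:**
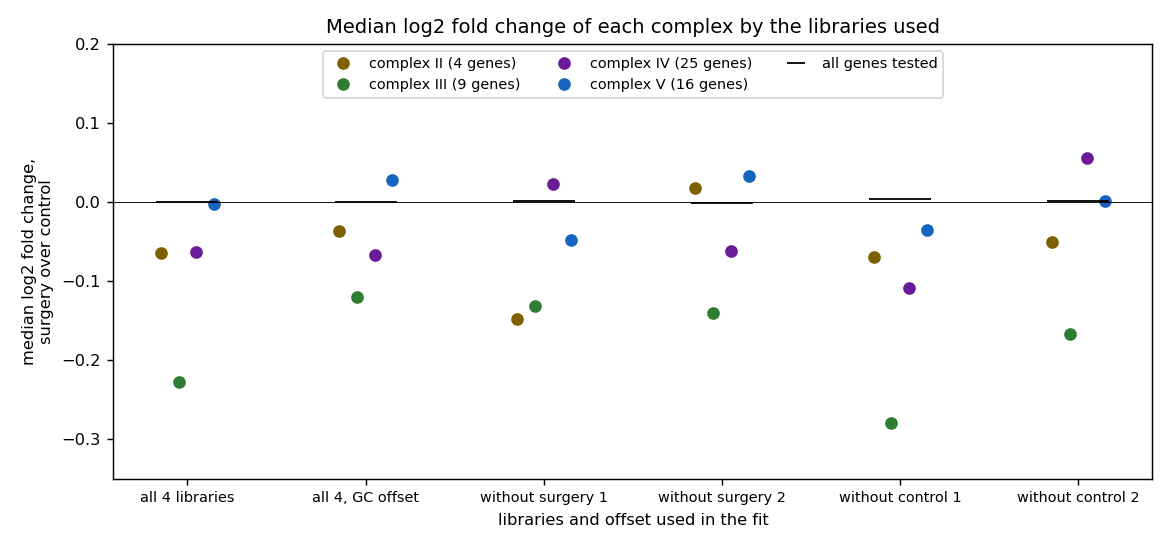
Median log2 fold change, surgery over control, of the tested genes of each complex (points) and of all genes (short lines), with all 4 libraries, with the GC offset, and with each library left out. Complex III lies below 0 in all 6 fits, between -0.28 and -0.12, and the other complexes cross 0.

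The transcripts of these genes were read from the deposited table of estimated counts, whose totals came to 3.91 and 3.91 times the gene totals in the surgery libraries and 3.85 and 3.85 times in control. Of 226 member transcripts 186 passed the filter, 0 passed an adjusted p of 0.05 with edgeR, and 4 were lower and 4 higher at an unadjusted p under 0.05. Over all 65665 transcripts, 3.30% were lower, 2.69% higher and 0% passed the adjusted threshold. The 4 of 186 member transcripts in each direction were smaller shares than these. Member transcripts were thus not found at this p more often than transcripts at large, and those named below are single cases. DESeq2 called 2 member transcripts, Atp5g1-201 and Atp5a1-205, against 4.16% of the 74075 transcripts it adjusted, and limma-voom called 0, with 12 at an unadjusted p under 0.05.

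For Atp5g3, Atp5e and Atp5k the coding transcripts were lower as well. Atp5g3-201 had 1309 and 1432 estimated counts in the surgery libraries, against 2988 and 3887 in control, a log2 fold change of -1.30 (SE 0.28). Atp5g3-202, the longer of the pair by a few bases and the main transcript, had 4758 and 3677 estimated counts in the surgery libraries, against 6197 and 6900 in control. Both were lower in both surgery libraries, and Atp5g3-201 took 19.2% and 21.4% of the gene's transcript counts after surgery, against 28.4% and 32.6% in control. Atp5e-201, which takes most counts of its gene, had 2505 and 2625 estimated counts in the surgery libraries, against 3781 and 4844 in control, a log2 fold change of -0.72. Atp5k-201 had 137 and 686 estimated counts in the surgery libraries, against 1956 and 2374 in control, and the retained-intron form Atp5k-203 had 227 and 116 estimated counts in the surgery libraries, against 428 and 531 in control. The retained-intron form took 62.4% and 14.5% of the gene's transcript counts in the surgery libraries, against 17.95% and 18.21% in control. Both forms lay under control, with log2 fold changes of -2.35 and -1.47 (SE 0.95 and 0.53).

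Cox6b1 behaved otherwise. Its coding transcript Cox6b1-201 had 4182 and 5587 estimated counts in the surgery libraries, against 7303 and 7619 in control, a log2 fold change of -0.58. Its retained-intron form Cox6b1-202 had 167 and 356 estimated counts in the surgery libraries, against 83 and 63 in control, a log2 fold change of 1.88 in the other direction (SE 0.62). The retained-intron form made up 3.83% and 5.97% of the gene's transcript counts in the surgery libraries, against 1.12% and 0.817% in control. A retained-intron form each of Atp5a1 and Atp5b was also higher. Atp5a1-205 had 170 and 145 estimated counts in the surgery libraries, against 38 and 24 in control, a log2 fold change of 2.37, beside the coding Atp5a1-201 with 54386 and 42064 estimated counts in the surgery libraries, against 50194 and 39366 in control. Atp5b-202 had 191 and 110 estimated counts in the surgery libraries, against 39 and 39 in control, a log2 fold change of 1.96, beside the coding Atp5b-201 with 60482 and 55365 estimated counts in the surgery libraries, against 56922 and 57355 in control. In both genes these forms were under 0.4% of the gene's transcript counts in every library. Other retained-intron forms of the same genes had unadjusted p-values over 0.1. Atp5a1-203 had 256 and 829 estimated counts in the surgery libraries, against 348 and 419 in control, with overlapping groups, and Atp5b-205, the largest of these forms, had 7586 and 7587 estimated counts in the surgery libraries, against 7012 and 6916 in control, a log2 fold change of 0.15 (SE 0.15).

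Among the 51 retained-intron transcripts of the members, 30 had a positive log2 fold change, or 58.8%, with a median of 0.08. Of all 13463 retained-intron transcripts 47.9% were positive, with a median of -0.04. The groups did not overlap for 14 of the 51 that were higher (27.5%, against 17.0% of all) and 10 that were lower (19.6%, against 20.2%). Of the 101 coding transcripts of the members 45 were positive, or 44.6%, against 50.4% of all coding transcripts.

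A few transcripts stood apart within genes that were level as a whole. Atp5g1-201 had 1 and 1 estimated counts in the surgery libraries, against 252 and 326 in control, the largest difference among member transcripts by log2 fold change (-7.98, adjusted p = 0.407 from edgeR). The fitted value rests on 1 count in each surgery library. Scaled to the totals, the ratio of surgery to control was 0.00339 (95% exact interval 0.00041 to 0.0123). This interval takes the estimated counts as if they were read counts. It leaves out the error of the estimation and the spread between libraries, so it is too narrow. The other transcripts of Atp5g1 overlapped between the groups. Atp5g1-202 had 2291 and 4803 estimated counts in the surgery libraries, against 4133 and 2675 in control, and Atp5g1-204 had 3772 and 1453 estimated counts in the surgery libraries, against 1616 and 2885 in control. Atp5g1-201 and Atp5g1-204 are both long forms of similar length, and their split by the estimation was not tested. Uqcrc2-204, a retained-intron form, had 2 and 3 estimated counts in the surgery libraries, against 17 and 27 in control, beside the coding Uqcrc2-201 with 14889 and 12413 estimated counts in the surgery libraries, against 13064 and 12330 in control. Cox4i1-201, the main transcript of Cox4i1, had 18716 and 24048 estimated counts in the surgery libraries, against 11484 and 13761 in control, a log2 fold change of 0.79 (SE 0.22), where the gene counts gave 0.08.

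**Figure D5:**
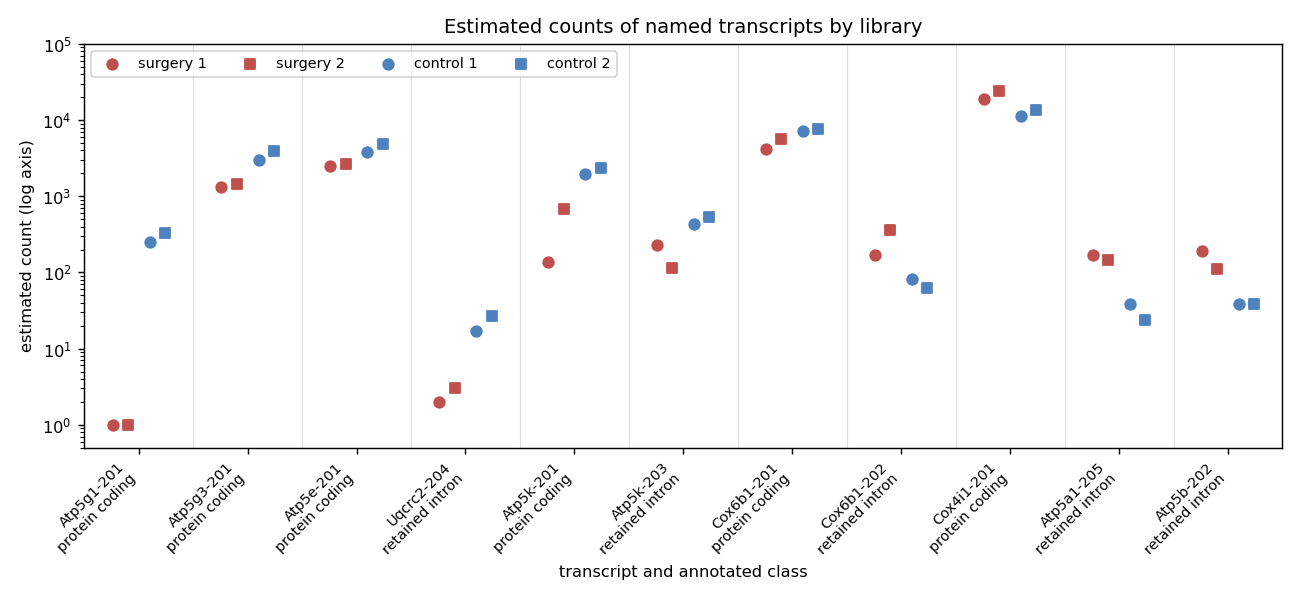
Estimated counts of 11 named transcripts by library on a log axis, with surgery libraries left of control in each column (circle, replicate 1; square, replicate 2). The coding transcripts of Atp5g3, Atp5e, Atp5k and Cox6b1 lie lower in the surgery libraries, and the retained-intron forms Cox6b1-202, Atp5a1-205 and Atp5b-202 lie higher.

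Partners of these complexes were counted on lists drawn up from their known roles. The 6 mitochondrially encoded subunits of complexes III to V lay at a median of 0.37 in log2 fold change, with 0 at an unadjusted p under 0.05 in either direction. Without surgery library 1 this median was 0.05, without surgery library 2 0.44, without control library 1 0.69, without control library 2 0.17, and with the GC offset 0.21. The largest by counts, mt-Co1, the catalytic subunit of complex IV, had 22059 and 23149 CPM in the surgery libraries, against 18601 and 14754 CPM in control (log2 fold change 0.44, SE 0.28). Its groups were apart, and mt-Co2, mt-Atp6 and mt-Co3 overlapped. For mt-Atp6, a membrane subunit beside the c-ring, the surgery libraries had 259 and 49.7 CPM and the control libraries 125 and 38.2 CPM, so the first library of each group was several times the second.

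Of 28 assembly factors outside the members, 2 were lower at an unadjusted p under 0.05 (7.14%, near the 5.63% of all genes). Of the 28, 0 were higher (0%, against 4.33%), and the median log2 fold change was 0.05. The 2 lower were Pet100 and Surf1, which act on complex IV. Pet100 had 2.13 and 5.18 CPM in the surgery group against 5.62 and 11.02 CPM in the control group, a log2 fold change of -1.19 (SE 0.41), and Surf1 had 33.7 and 33.5 CPM in the surgery group against 40.4 and 41.3 CPM in the control group, a log2 fold change of -0.28 (SE 0.12). Sdhaf4 and Sdhaf1, which help to build complex II, also lay under control in both surgery libraries, at log2 fold changes of -0.47 and -0.73.

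The 13 electron and phosphate carriers and partners had 0 genes at an unadjusted p under 0.05 and a median log2 fold change of 0.0082. The 16 genes of the citric acid cycle and pyruvate dehydrogenase, which feed electrons to the complexes, had 0 as well, with a median of 0.05. The nearest to the threshold were the outer membrane channel Vdac3, at 0.27, and the dehydrogenase subunits Idh3g and Pdhb, at 0.23 and 0.26. Both surgery libraries lay above both controls for 6 of the 16 (37.5%, against 20.3% of all genes), Idh3g, Pdhb, Fh1 and Idh3a among them. They lay under both controls for 1 of the 16 (6.25%, against 22.3%).

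Among 11 regulators of respiratory genes 3 were lower at an unadjusted p under 0.05 (27.3%, against 5.63% of all genes). At the same p 0 were higher (0%, against 4.33%), and the median log2 fold change was -0.04. Esrra, which encodes the nuclear receptor ERRalpha, had 24.99 and 32.7 CPM in the surgery libraries, against 40.9 and 53.2 CPM in control, a log2 fold change of -0.70 (SE 0.17, edgeR adjusted p = 0.34). Ppargc1b, a coactivator of the PGC-1 family, had 6.86 and 8.02 CPM after surgery and 12.9 and 12.1 CPM in control, a log2 fold change of -0.75 (SE 0.19). Pprc1, a related coactivator, had 23.4 and 28.7 CPM after surgery and 36.7 and 39.4 CPM in control, a log2 fold change of -0.55 (SE 0.14). All 3 had both surgery libraries under both controls (27.3% of the list, against 22.3% of all genes). For 4 of the 11 both surgery libraries lay above both controls (36.4%, against 20.3% of all genes). Gabpb1, a subunit of GABP, was 1 of these 4, at a log2 fold change of 0.34 with an edgeR adjusted p = 0.526.

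The 45 nuclear genes of complex I, the most like group, had 6 lower and 2 higher at an unadjusted p under 0.05 and a median log2 fold change of -0.11. In shares, 20.4% of the members of complexes II to V were lower and 13.3% of those of complex I, against 5.63% of all genes. For higher genes the shares were 1.85% and 4.44%, against 4.33% of all genes. The difference between the 2 groups of genes was not tested.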

How the data were processed

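Gene counts, gene FPKM, transcript counts and transcript FPKM of 2 surgery and 2 control hippocampus libraries were used. The authors aligned reads to mm10 with HISAT2 at default settings and made the deposited gene counts with HTSeq, given as version 5.4.2 in the submitters' processing notes. The deposited estimated counts per transcript are whole numbers, made by a tool not given in the sources used here. The FPKM values as deposited are the authors' counts scaled by feature length and library total, and served for levels between genes and for alternatives. Strand setting and annotation release are not given in the sources used here.

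Surgery was set against control, with no covariate, by the quasi-likelihood test of edgeR 4.0.16 (R 4.3.3). Library sizes carried TMM factors, low features were removed by filterByExpr (minimum count 10, minimum total 15), and p-values were adjusted by Benjamini-Hochberg over all tested genes or transcripts at 0.05. Alternatives were DESeq2 1.42.0, limma-voom (limma 3.58.1), RLE factors, other filters, the replicate number as a block, each replicate left out, offsets for GC content and length (smooth trends with a span of 0.3 over genes above a log2 CPM of 3), log2 FPKM with pseudocounts of 1 and 0.1 or an FPKM minimum of 1, and gene counts summed from transcripts. Positions, GC content and shared 50-base stretches came from GENCODE vM21 on GRCm38, and promoters from RefSeq. For 13 members other genes share at least 20% of the 50-base stretches, so the reads of these members are less certain. Uqcrb (43.4%), Cox5a (32.0%), Uqcrc2 (24.2%) and Cox7c (23.0%) are among the 13. The fits were tested on simulated counts.

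The members and gene lists were chosen with earlier results of these data known. All complex II and III subunits, the ubiquitous complex IV subunits, Cox4i2, Cox6a2, Cox7a1, the F1, stalk and c-ring genes and any other member with an unadjusted p under 0.05 or among the 12 smallest were named with values. Other lists were named up to 4 genes, and transcripts up to 5 each way by smallest p if the higher group averaged 1 CPM or more, with the other main transcript. Depths were 18002695 to 19318085 gene counts and 69394548 to 75437127 transcript counts. The counting interval takes estimated transcript counts as read counts, and covers neither the estimation nor the spread between libraries. PCR copies were not told apart.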

Additional observations from a re-analysis of the deposited data

How the results depend on the processing

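The median log2 fold change of the members was -0.06 and stayed negative in every alternative run. Leaving out each replicate in turn moved it between -0.10 and -0.0082, the second value without control replicate 2. The main edgeR fit called 0 of 17236 genes and 0 of 54 members. DESeq2 called 68 of the 8962 genes it adjusted, 2 of them members (Atp5g3, Atp5e). With no filter on low counts 395 of 29672 genes and 7 of 55 members passed, with Cox11, Uqcr11, Cox6b1, Atp5k and Atp5d added. With at least 10 counts in each library 1 of 15868 genes and 0 of 51 members passed. Leaving out 1 replicate gave 16 to 724 genes and 1 to 10 members. The members were Atp5k without control replicate 1, Cox8b and Atp5k without control replicate 2, and Atp5g3, Atp5e and Atp5k without surgery replicate 1. The 10 without surgery replicate 2 also included Cyc1, Uqcr11, Cox5b, Cox6b1, Uqcrq, Atp5j2 and Atp5d. The lone library was assumed to vary like the other group. The 11 members lower at an unadjusted p under 0.05 (20.4%, against 5.63% of all genes) became 7 with DESeq2 (12.7%, against 2.40%). They became 7 with log2(FPKM + 1) and 7 with log2(FPKM + 0.1) (each 13.0%, against 6.02%). With an FPKM of at least 1 they became 6 (11.5%, against 6.74%). With gene counts summed from transcripts they became 4 (7.27%, against 3.00%). The 1 higher member (1.85%, against 4.33% of all genes) became 2 with no filter (3.64%, against 4.32%). The count became 4 with the GC offset (7.41%, against 3.44%) and 4 with the GC and length offset (7.41%, against 3.64%). It became 0 with each of the 3 FPKM settings, against 3.07% to 3.53% of all genes. The 8 member transcripts became 19 with log2(FPKM + 1) and 4 to 14 with 1 replicate left out. All 12 members at an unadjusted p under 0.05 kept their sign in all 17 alternatives, and 31 of the 54 tested changed sign in none of the alternatives that gave them a value. The causes of these differences were not tested.

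The replicate numbers did not pair the libraries by any label. The deviations of same-numbered libraries from their group means correlated at 0.20 over 10867 genes. With the replicate block 39 of 17236 genes and 4 of 54 members (Atp5g3, Uqcr11, Atp5e, Atp5k) passed. In that fit 5 member transcripts had an unadjusted p under 0.05, a count given without the share of all transcripts. With the replicate block and the GC offset 6 genes and 1 member (Atp5k) passed. At an unadjusted p under 0.05, 13 members were then lower (24.1%, against 4.01% of all genes) and 2 higher (3.70%, against 3.84%).

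With 2 libraries a group, the spread is estimated from few samples. Members at 6 to 56 counts in a library (Cox16, Cox20, Cox4i2) carried standard errors of 0.33 to 0.63 on the log2 scale. Differences well beyond 1 standard error could also go uncalled. Atp5k, at a log2 fold change of -2.08 (SE 0.31), had an edgeR adjusted p = 0.123.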
